A study of Mus musculus with 9 samples.

Results

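Cholesterol and fatty acid synthesis were followed through 33 mouse genes: 18 enzymes of the sterol pathway, 5 genes that control the sterol-sensing SREBP transcription factors, 5 genes of sterol transport and 5 genes of fatty acid synthesis. The genes were chosen by their function, with earlier results of the same libraries known, including their log2 CPM (counts scaled to the size of the library) in each library. Their levels and differences are therefore given as a description and not as tests of the pathway. All 33 were found by symbol among 78275 gene IDs, and all 33 passed the filter against low counts, as did 27773 genes in all. The fewest reads of any of them in 1 library were 454, for Scd1.

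The developing brain makes most of its own cholesterol, because the cholesterol of lipoproteins in blood hardly enters it. Cells build sterols from acetyl-CoA through mevalonate, isoprenoid phosphates, squalene and lanosterol, and the late enzymes trim lanosterol to cholesterol. When sterols in the endoplasmic reticulum run low, the escort protein SCAP, otherwise held back by the INSIG proteins, carries SREBP precursors to the Golgi, where proteases free the transcription factor. SREBP-2 then acts mainly on sterol enzyme genes and SREBP-1 mainly on fatty acid genes, at promoters where the factors NF-Y and Sp1 often bind beside them.

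The libraries came from wild-type mouse embryos electroporated in utero at E14.5 with a microRNA-based hairpin plasmid that also encodes mCherry, a red fluorescent protein. The hairpin targeted Gpc4 (sh-Gpc4) or Gpc2 (sh-Gpc2), both heparan sulfate proteoglycans held at the cell surface by a lipid anchor, or was a scrambled control (sh-NT). Red cells of the cortex were sorted 48 hours later, at E16.5 (E for embryonic day), and all 3 groups thus share the electroporation, the fluorescent marker and the sort. The labels call the cells cortical progenitors and neurons, and give no litter or embryo for any library. The p-values thus measure only the spread between these libraries, which may be technical. Each group has 3 libraries, named here by the column number of the count table: columns 1, 3 and 4 in sh-Gpc4, and columns 1, 2 and 4 in the other groups. Values are listed in that order throughout.

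Total counts ran from 48045603 to 66538437 reads. Gpc4 was at 165, 188 and 175 CPM in sh-NT, 137.5, 99.9 and 129.5 in sh-Gpc4 and 145, 216 and 116 in sh-Gpc2. All 3 sh-Gpc4 libraries lay below sh-NT, as did libraries 1 and 4 of sh-Gpc2. Library 4 of sh-Gpc2 was also below libraries 1 and 4 of sh-Gpc4. Gpc2 was at 199.7, 207.5 and 161 CPM in sh-NT, 168, 70.3 and 96.6 in sh-Gpc4 and 167, 145 and 79.6 in sh-Gpc2, so library 1 of sh-Gpc2 lay within the sh-NT range and the Gpc2 level does not check its label. The log2 fold change was -0.53 (SE 0.21) for Gpc4 in sh-Gpc4 and -0.54 (SE 0.33) for Gpc2 in sh-Gpc2, while Gpc2 was at -0.76 (SE 0.33) in sh-Gpc4. Libraries 3 of sh-Gpc4 and 4 of sh-Gpc2 stood apart, and library 4 of sh-Gpc4 lay between them and the rest: on the first principal component of 11935 genes other than the 33, which held 71.6% of the variance, these 3 were at 46.6, 36.5 and 15.8 and the other 6 between -25.7 and -5.68. In the same 3 libraries genes with GC-rich transcripts were lower. The Spearman rho between a gene's deviation and its GC content was -0.53, -0.44 and -0.31 across 10321 genes, against 0.29 to 0.42 in the other 6. Gpc2 was also lowest in these 3 libraries. Summed markers of excitatory neurons were at 3460 to 4295 CPM, of radial glia at 1593 to 2639 and of intermediate progenitors at 535 to 597, as the label states. Markers of microglia, the brain's macrophages, were also present at 541 to 1930 CPM, all 10 of 10 above 0, while endothelial markers summed to 4.14 to 10.1 CPM. In such bulk RNA, fewer cells of a type and less RNA per cell cannot be told apart.

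RefSeq promoters of 300 bases (250 before and 50 after the start, GRCm38.p6) were matched by symbol for 25 of the 33 genes. They are shown here because the text returns to these 5 genes: the group means of Hmgcs1, Pmvk and Hsd17b7 were higher in both knockdowns, and those of Srebf2 and Fasn lower. Capitals mark matches, on either strand, to TCACNCCAC (sterol regulatory element), CCAAT (NF-Y box), CACGTG (E-box) and GGGCGG (Sp1 box). Each run is 5′ to 3′ on the strand of the gene, lies before the start and in no GENCODE M21 exon, and holds 150 bases. The locations are chr13:119690201-119690350 (+) for Hmgcs1, chr3:89454391-89454540 (+) for the first of the Pmvk starts, chr1:169969242-169969391 (−) for Hsd17b7, chr15:82147031-82147180 (+) for Srebf2 and chr11:120824548-120824697 (−) for Fasn.
Hmgcs1: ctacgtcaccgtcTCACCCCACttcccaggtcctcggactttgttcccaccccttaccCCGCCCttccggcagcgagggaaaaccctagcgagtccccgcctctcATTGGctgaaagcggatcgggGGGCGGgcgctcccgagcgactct
Pmvk: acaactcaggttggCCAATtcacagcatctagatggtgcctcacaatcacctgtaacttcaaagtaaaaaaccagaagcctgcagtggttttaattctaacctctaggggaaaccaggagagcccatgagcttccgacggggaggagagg
Hsd17b7: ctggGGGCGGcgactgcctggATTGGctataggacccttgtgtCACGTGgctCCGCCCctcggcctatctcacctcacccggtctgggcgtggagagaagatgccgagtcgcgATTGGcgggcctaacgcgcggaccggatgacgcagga
Srebf2: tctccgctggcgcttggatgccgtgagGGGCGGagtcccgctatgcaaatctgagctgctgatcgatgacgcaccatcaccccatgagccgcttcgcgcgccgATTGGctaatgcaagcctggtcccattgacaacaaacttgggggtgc
Fasn: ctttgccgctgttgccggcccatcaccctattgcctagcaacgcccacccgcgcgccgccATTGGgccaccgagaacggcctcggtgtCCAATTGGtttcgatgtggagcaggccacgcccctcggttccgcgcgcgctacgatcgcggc

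These 25 genes have 33 such windows, since some have several starts, and a gene is counted here when any of its windows held the letters. Of the 25 genes, only Hmgcs1 had the sterol element letters, 137 bases before its start, against 1.48% of 13006 tested genes and 1.44% of all 27025 genes in the table. The NF-Y box letters were in 20 of 25 (80%), against 42.2% of tested genes and 41.1% of all. Among the 15 sterol enzymes with a promoter, 14 (93.3%) held them. Sp1 box letters were in 21 of 25 (84%), against 63% of tested genes and 38.2% of all, and the E-box in 6 of 25 (24%), against 10.8% and 8.09%. In the Fasn run NF-Y boxes on both strands overlap in the letters CCAATTGG. These matches describe letters in a window and not sites of binding.

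Per kilobase of exon, the sh-NT means of the 33 genes spanned from 129 CPM for Acat2, an acetyl-CoA thiolase, to 1.99 for Scd1. Hmgcs1, the synthase that makes HMG-CoA, followed at 98, then Scd2, the main stearoyl-CoA desaturase of brain, at 80.1, Fdft1 (squalene synthase) at 54.5, Sqle (squalene epoxidase) at 47.4 and Insig1 at 45.7. The transcription factor gene Srebf2 stood at 29.5 and its relative Srebf1 at 15.7 on this scale. Acaca, the carboxylase that starts fatty acid synthesis, was next to lowest at 2.89. Scd1, the form best known from liver and fat, was thus far below its paralog Scd2, although reads that match both genes could be divided between them.

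Most of the 18 sterol enzymes had a small positive log2 fold change in both knockdowns. In sh-Gpc4 over sh-NT, 14 of 18 had a positive log2 fold change, with a median of 0.17, beside a median of 0.02 and 52.8% positive over all 27773 genes. In sh-Gpc2 over sh-NT, 15 of 18 were positive with a median of 0.14, beside 0.00 and 50.7% over all genes. Both comparisons use the same sh-NT libraries, so they are not independent of each other. As log2 deviations from the mean of all 9 libraries, the median of the 18 enzymes was -0.15, -0.16 and 0.09 in sh-NT, 0.13, 0.08 and -0.03 in sh-Gpc4 and 0.06, 0.04 and 0.02 in sh-Gpc2. By this median, library 4 of sh-NT was above 5 of the 6 knockdown libraries, and libraries 1 and 2 of sh-NT were below all 6. Gene by gene, 13, 12 and 7 of the 18 enzymes in sh-Gpc4 and 10, 10 and 8 in sh-Gpc2 exceeded every sh-NT library. Below every sh-NT library were 0, 5 and 4 in sh-Gpc4 and 0, 0 and 5 in sh-Gpc2. The share of all genes beyond the controls in single libraries was not counted, so nothing is read from these numbers. No gene of the whole table passed an adjusted p of 0.05 (0% called) in edgeR's quasi-likelihood test with Benjamini-Hochberg adjustment, where the smallest adjusted p was 0.488 in sh-Gpc4 and 0.968 in sh-Gpc2. At an unadjusted p under 0.05 stood 988 genes higher and 1669 lower in sh-Gpc4 and 449 higher and 263 lower in sh-Gpc2. DESeq2 called 46 genes in sh-Gpc4 and 0 in sh-Gpc2, none of them among the 33. The limma voom fit with sample weights called 0 in both.

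Among the first enzymes of the pathway, Hmgcs1 (chr13:119690379-119708260, gene bounds of GENCODE M21 on GRCm38 here and below) was at 418, 447 and 486 CPM in sh-NT, 561, 525 and 479.6 in sh-Gpc4 and 556, 514 and 523 in sh-Gpc2. All sh-Gpc2 libraries were above all sh-NT libraries, while library 4 of sh-Gpc4 fell within the sh-NT range. The log2 fold change was 0.21 (SE 0.09) in sh-Gpc4 and 0.24 (SE 0.09) in sh-Gpc2. Pmvk (chr3:89454541-89469013), phosphomevalonate kinase, was at 47.4, 44.8 and 50.6 CPM in sh-NT, 55.8, 58.6 and 53 in sh-Gpc4 and 51, 55.7 and 57.2 in sh-Gpc2. Every knockdown library exceeded every control library, with log2 fold changes of 0.23 (SE 0.09) and 0.20 (SE 0.09). The nearest values were those of library 4 of sh-NT and library 1 of sh-Gpc2.

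The other mevalonate enzymes did not share this separation. Acat2 was at 281 to 420.3 CPM in sh-NT, 329.9 to 435 in sh-Gpc4 and 334 to 394 in sh-Gpc2, and the sh-NT range took in most of the knockdown libraries because library 4 of sh-NT was high. Acat2 had a log2 fold change of 0.21 (SE 0.17) in sh-Gpc4 and 0.15 (SE 0.17) in sh-Gpc2. Mevalonate kinase, Mvk, spanned 20.02 to 23.5 CPM in sh-NT, 16.8 to 22.1 in sh-Gpc4 and 16.6 to 23.2 in sh-Gpc2. Mvd, the decarboxylase that yields isopentenyl diphosphate, spanned 35.7 to 40.4, 34.3 to 44.5 and 34.8 to 44.6 CPM. For Mvk and Mvd the lowest values of all 9 libraries were those of libraries 3 of sh-Gpc4 and 4 of sh-Gpc2, the 2 that stood apart.

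Idi1 (chr13:8885501-8892451), which isomerises isopentenyl diphosphate, was at 25.8, 27.5 and 28.4 CPM in sh-NT, 34.9, 34.6 and 32.2 in sh-Gpc4 and 32.3, 31.9 and 34.6 in sh-Gpc2. The 6 knockdown libraries lay above the 3 control libraries, and the libraries that stood apart were among the higher ones. The log2 fold change was 0.32 (SE 0.09) in sh-Gpc4 and 0.28 (SE 0.09) in sh-Gpc2. Fdps, farnesyl diphosphate synthase, was at 141, 148 and 184 CPM in sh-NT, 188, 193 and 168 in sh-Gpc4 and 174, 185 and 190 in sh-Gpc2. Its log2 fold change was 0.21 (SE 0.11) and 0.21 (SE 0.11), but library 4 of sh-NT was higher than library 4 of sh-Gpc4 and library 1 of sh-Gpc2. Of the Fdps exon bases, 26.7% overlap another gene, Gm43738, on the same strand.

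For the 3 genes from squalene synthesis to lanosterol, neither knockdown was separate from sh-NT. Sqle was at 247, 250.5 and 291.5 CPM in sh-NT, 293, 271 and 268 in sh-Gpc4 and 294, 275 and 256 in sh-Gpc2, and the ranges of all 3 groups overlapped. Its log2 fold change was 0.08 (SE 0.09) in sh-Gpc4 and 0.06 (SE 0.09) in sh-Gpc2. Fdft1 was at 230.5 ± 29.6 CPM (SD, n = 3) in sh-NT, 261 ± 17.9 in sh-Gpc4 and 245 ± 6.89 in sh-Gpc2, with 18.3% of its exon bases shared with Ctsb on the opposite strand, and its log2 fold change was 0.18 (SE 0.10) and 0.09 (SE 0.10). Lss, lanosterol synthase, ranged over 99.9 to 114 CPM in sh-NT, 76.7 to 119.9 in sh-Gpc4 and 76.5 to 121 in sh-Gpc2. Its values in libraries 3 and 4 of sh-Gpc4 and 4 of sh-Gpc2 were below all controls, whereas libraries 1 of both knockdowns were above them (log2 -0.17, SE 0.20, and -0.04, SE 0.20).

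Of the late sterol enzymes, Msmo1 had the largest log2 fold change among the 33 genes in sh-Gpc4 in the positive direction. Msmo1 (chr8:64718139-64733792), the methylsterol oxidase that starts removal of the methyl groups at carbon 4, was at 144.5, 153 and 164 CPM in sh-NT, 210.2, 191 and 192 in sh-Gpc4 and 193, 175 and 189 in sh-Gpc2. The 3 groups were ordered with sh-NT lowest and no overlap between sh-NT and either knockdown. The fold was 1.29 in sh-Gpc4 (log2 0.36, SE 0.08) and 1.21 in sh-Gpc2 (log2 0.27, SE 0.08). Cyp51, lanosterol demethylase, was at 179, 169.5 and 184 CPM in sh-NT, 211, 197 and 191 in sh-Gpc4 and 208, 193 and 187 in sh-Gpc2, also without overlap. The log2 fold change was 0.17 (SE 0.08) and 0.14 (SE 0.08), and the gap to library 4 of sh-NT was narrow. Hsd17b7, a reductase of the same demethylation complex, was at 29.6, 31.2 and 30.8 CPM in sh-NT, 36.8, 35 and 31.5 in sh-Gpc4 and 34.4, 34 and 33.8 in sh-Gpc2. Library 4 of sh-Gpc4 was the nearest to the controls, and the log2 fold change was 0.17 (SE 0.09) and 0.16 (SE 0.09).

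The remaining late enzymes were Nsdhl, Ebp, Sc5d, Tm7sf2 and Dhcr7. Nsdhl, the dehydrogenase between Msmo1 and Hsd17b7, was at 55.7 ± 11.1 CPM (SD, n = 3) in sh-NT, 63 ± 7.77 in sh-Gpc4 and 61.5 ± 5.59 in sh-Gpc2. The isomerase Ebp was at 13.2 ± 2.77, 16.4 ± 2.44 and 14.8 ± 2.19 CPM. In sh-Gpc4 and sh-Gpc2, the log2 fold changes of Nsdhl were 0.18 (SE 0.15) and 0.14 (SE 0.15), and those of Ebp 0.31 (SE 0.18) and 0.16 (SE 0.18). For both, library 4 of sh-NT was far above the other controls and within the knockdown range. Sc5d, the lathosterol oxidase, was at 113 to 117 CPM in sh-NT, 118 to 132 in sh-Gpc4 and 117 to 128 in sh-Gpc2, separate from sh-NT only in sh-Gpc4 and there by less than 1 CPM. Tm7sf2, a sterol reductase, lay at 22.1 to 27.4 CPM over all 9 libraries with log2 fold changes of -0.06 and -0.04. Dhcr7, the last reductase before cholesterol, spanned 51.9 to 58.5, 43.1 to 58.5 and 44.1 to 65.6 CPM and was lowest in libraries 3 of sh-Gpc4 and 4 of sh-Gpc2.

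**Figure D1:**
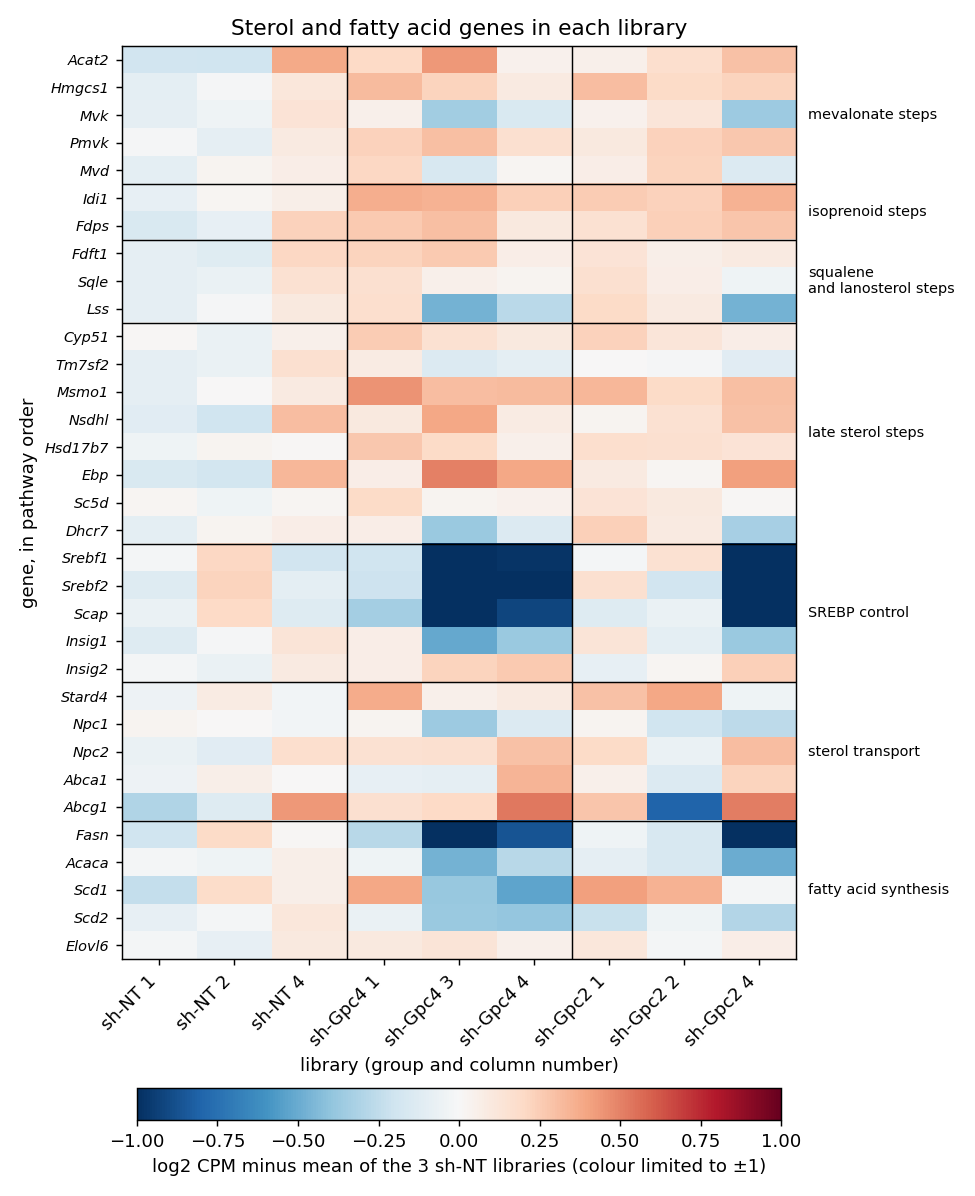
Each row is 1 of the 33 genes in pathway order and each column 1 library, coloured by log2 CPM minus the mean of the 3 sh-NT libraries (colour limited to 1 in each direction). Pmvk, Idi1, Cyp51, Msmo1 and Hsd17b7 are above 0 (red) in all 6 knockdown libraries. So are Acat2, Hmgcs1, Fdps, Fdft1, Nsdhl, Ebp and Sc5d, in part only faintly. Srebf1, Srebf2, Scap and Fasn are darkest blue in libraries 3 and 4 of sh-Gpc4 and 4 of sh-Gpc2.

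Read across the 6 knockdown libraries, Pmvk, Idi1, Cyp51, Msmo1 and Hsd17b7 were above all 3 sh-NT libraries in each of them, 5 of 33 (15.2%) beside 1.65% of all genes tested. Acaca alone was below in all 6, 1 of 33 (3.03%) beside 2.14%. The number of the 18 sterol enzymes that exceeded every control library was 13, 12 and 7 in sh-Gpc4 and 10, 10 and 8 in sh-Gpc2. Libraries 1 of sh-Gpc4 and 1 and 2 of sh-Gpc2 had 0 enzymes below every control. Libraries 3 and 4 of sh-Gpc4 and 4 of sh-Gpc2 had 5, 4 and 5 below. For these counts in single libraries, the share over all genes was not counted. Non-overlapping groups were found for 6 of the 33 genes higher and 5 lower in sh-Gpc4, beside a background of 10.8% and 13.2% of all genes. In sh-Gpc2 they were found for 6 higher and 1 lower, beside 3.59% and 4.11%. At an unadjusted p under 0.05 were 4 genes higher (Msmo1, Idi1, Pmvk and Hmgcs1) and 3 lower (Scd2, Fasn and Scap) in sh-Gpc4, beside 3.56% and 6.01% of all genes. In sh-Gpc2 these were 3 higher (Msmo1, Idi1 and Hmgcs1) and 0 lower, beside 1.62% and 0.947%. Since the genes were chosen on these same libraries, nothing is read from these counts.

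Without libraries 3 of sh-Gpc4 and 4 of sh-Gpc2, an omission chosen after the data were seen, 14 of 18 enzymes were positive in sh-Gpc4 and 17 of 18 in sh-Gpc2, each with a median log2 fold change of 0.12. Msmo1 was then at 0.38 and 0.25, Idi1 at 0.29 and 0.23, Pmvk at 0.19 and 0.15 and Hmgcs1 at 0.20 and 0.23. Leaving out 1 library at a time, the median of the 18 enzymes ran from 0.11 (without library 2 of sh-NT) to 0.23 (without library 4 of sh-Gpc4) in sh-Gpc4. In sh-Gpc2 it ran from 0.07 (without library 2 of sh-NT) to 0.18 (without library 4 of sh-NT).

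Of the 5 control genes, 4 had a negative log2 fold change in both knockdowns. Srebf2 (chr15:82147181-82205379), which encodes SREBP-2, was at 193, 245 and 197 CPM in sh-NT, 182, 68.7 and 90.7 in sh-Gpc4 and 236, 184 and 75.7 in sh-Gpc2. Srebf1 (chr11:60199089-60222581), which encodes SREBP-1, was at 87.1, 102 and 77.2 CPM in sh-NT, 76.5, 22.7 and 44.6 in sh-Gpc4 and 87.2, 98 and 27.9 in sh-Gpc2. Scap (chr9:110333288-110384950), their escort in the endoplasmic reticulum, was at 48, 58 and 45.9 CPM in sh-NT, 39.8, 14.8 and 26.6 in sh-Gpc4 and 46, 48 and 18.7 in sh-Gpc2. For all 3 genes the lowest libraries were, in this order, 3 of sh-Gpc4, 4 of sh-Gpc2 and 4 of sh-Gpc4. Library 1 of sh-Gpc4 was also below the controls but nearer to them, so the sh-Gpc4 and sh-NT groups did not overlap, whereas sh-Gpc2 overlapped sh-NT. In the same 3 lowest libraries the mean deviation of 895 other genes with long, GC-rich transcripts was -0.73, -0.58 and -0.23, against 0.15 to 0.38 in the other 6.

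In sh-Gpc4 the log2 fold change was -0.90 (SE 0.43) for Srebf2, -0.89 (SE 0.49) for Srebf1 and -0.91 (SE 0.39) for Scap. These were the largest differences among the 33 genes and also had the widest errors. In sh-Gpc2 the values were -0.36 (SE 0.42), -0.32 (SE 0.48) and -0.43 (SE 0.39), all smaller than their errors or close to them. The differences were smaller without libraries 3 of sh-Gpc4 and 4 of sh-Gpc2: sh-Gpc4 was at -0.65, -0.56 and -0.62 and sh-Gpc2 at -0.03, 0.05 and -0.12. These sh-Gpc4 values still held library 4, which was at -1.22, -0.98 and -0.92 log2 from the sh-NT mean. Library 1 of sh-Gpc4 was at -0.21, -0.20 and -0.34. Without library 1 of sh-Gpc4 alone, sh-Gpc4 was at -1.41, -1.40 and -1.29.

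INSIG proteins retain SCAP when sterols are plentiful, and Insig1 is itself an SREBP target. Insig1 was at 129, 140.3 and 154.5 CPM in sh-NT, 147.5, 99 and 109 in sh-Gpc4 and 154, 131 and 109 in sh-Gpc2, lowest in the 3 libraries where GC-rich genes were low and within the control range in the other 3 knockdown libraries. Insig2 lay at 53.1 to 59.6 CPM in sh-NT, 58.7 to 66.8 in sh-Gpc4 and 53 to 65.9 in sh-Gpc2, highest in those same 3 libraries. The log2 fold changes were -0.25 (SE 0.17) and -0.11 (SE 0.17) for Insig1 and 0.19 (SE 0.11) and 0.07 (SE 0.11) for Insig2. In libraries 3 and 4 of sh-Gpc4 and 4 of sh-Gpc2, Insig1 was thus below and Insig2 above the controls.

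**Figure D2:**
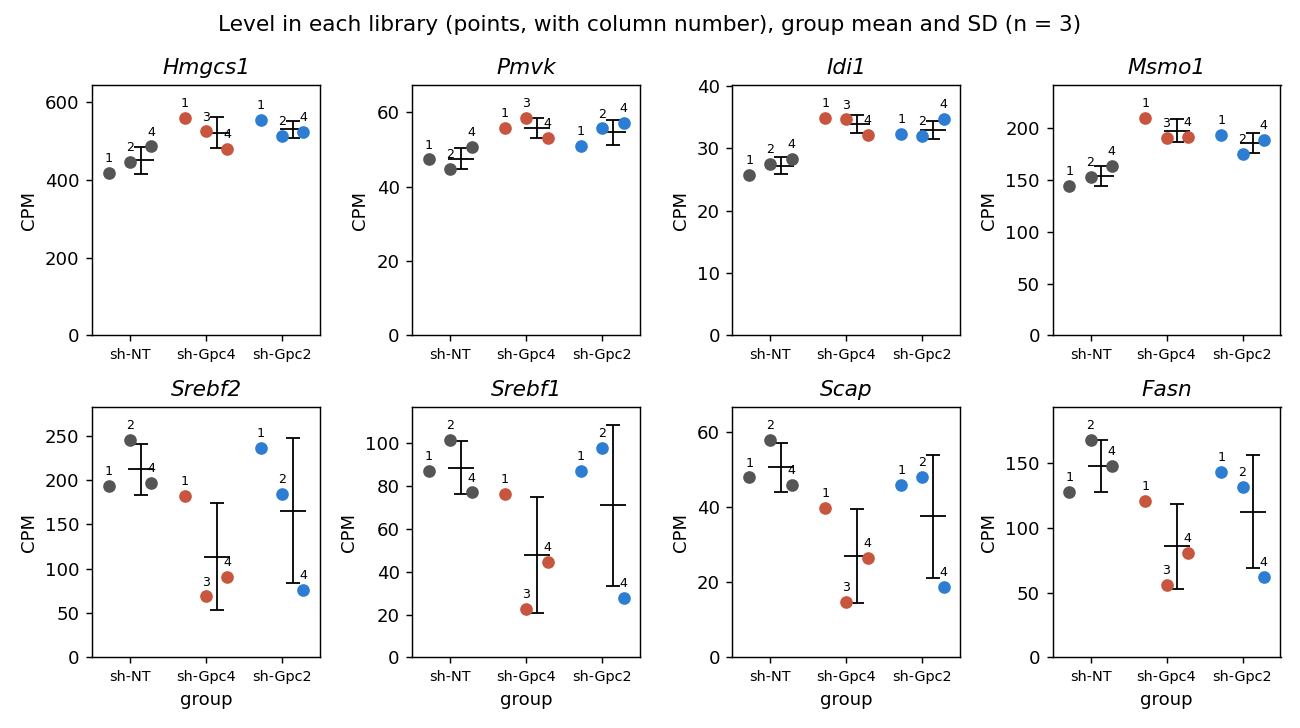
CPM of 4 sterol enzyme genes (upper row) and of Srebf2, Srebf1, Scap and Fasn (lower row) in each library, with points numbered by column and the mean and SD of 3 libraries beside them, on axes from 0. The 4 enzymes shown are higher in nearly all knockdown libraries with little spread. The lower row spreads widely, with low values in libraries 3 and 4 of sh-Gpc4 and 4 of sh-Gpc2.

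Fatty acid synthesis genes were mostly lower in sh-Gpc4, 4 of 5 with a median log2 fold change of -0.25, and in sh-Gpc2, 3 of 5 with a median of -0.18. Fasn (chr11:120805846-120824547), the fatty acid synthase, was at 128, 168 and 148 CPM in sh-NT, 121, 55.9 and 80.8 in sh-Gpc4 and 143, 132 and 62.5 in sh-Gpc2. The 3 sh-Gpc4 libraries were below sh-NT and the same libraries were lowest as for Srebf1. Its log2 fold change was -0.79 (SE 0.33) in sh-Gpc4 and -0.39 (SE 0.33) in sh-Gpc2. Without the 2 libraries that stood apart, but with library 4 of sh-Gpc4 kept, it was -0.56 and -0.12. Acaca was at 48.6, 48.1 and 51.5 CPM in sh-NT, 48, 35.6 and 40.8 in sh-Gpc4 and 46.5, 44.2 and 35 in sh-Gpc2, and each of the 6 was under the lowest control, library 1 of sh-Gpc4 by a margin under 1 CPM. The log2 fold change was -0.25 (SE 0.14) and -0.24 (SE 0.14).

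The desaturase Scd2 was at 412, 429.6 and 471 CPM in sh-NT, 416, 338 and 334 in sh-Gpc4 and 375, 425 and 358 in sh-Gpc2. Libraries 3 and 4 of sh-Gpc4 and 1 and 4 of sh-Gpc2 were below the controls, and the log2 fold change was -0.27 (SE 0.11) and -0.18 (SE 0.11). Scd1 was at 8.18, 10.9 and 10.1 CPM in sh-NT, 12.7, 7.42 and 6.69 in sh-Gpc4 and 12.8, 12.4 and 9.56 in sh-Gpc2, with libraries above and below the controls in sh-Gpc4. Elovl6, the elongase that extends palmitate, was steady at 81.6 to 94.4 CPM over all 9 libraries, with log2 fold changes of 0.09 (SE 0.08) and 0.05 (SE 0.08).

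Sterol transport genes gave no group separation in either knockdown. Stard4, a carrier of cholesterol between membranes, was at 59.1, 64.4 and 59.7 CPM in sh-NT, 79.1, 63.2 and 65 in sh-Gpc4 and 74.6, 80.2 and 59.5 in sh-Gpc2. Library 1 of sh-Gpc4 and libraries 1 and 2 of sh-Gpc2 were well above the controls, and the other 3 within 1 CPM of their range, for log2 fold changes of 0.18 (SE 0.13) and 0.23 (SE 0.13). Npc1 and Npc2, which together release cholesterol from lysosomes, lay at 36.6 to 48.1 and 223 to 298 CPM over the 9 libraries. In sh-Gpc4 Npc1 had a log2 fold change of -0.15 (SE 0.12) and Npc2 of 0.20 (SE 0.12), and in sh-Gpc2 -0.14 (SE 0.12) and 0.15 (SE 0.12).

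Abca1 and Abcg1 export cholesterol from cells and are targets of the sterol receptors LXR. Abca1 was at 75.8, 81.7 and 78.4 CPM in sh-NT, 74.5, 73.7 and 99.2 in sh-Gpc4 and 81.5, 71.1 and 91.5 in sh-Gpc2, highest in libraries 4 of both knockdowns. Abcg1 was at 86.3, 97.5 and 144 CPM in sh-NT, 119, 122 and 154 in sh-Gpc4 and 129.7, 61 and 151 in sh-Gpc2, with the lowest value in library 2 of sh-Gpc2 and the highest in library 4 of sh-Gpc4. Summed microglia markers were at 979, 1031 and 1527 CPM in sh-NT, 1358, 1321 and 1930 in sh-Gpc4 and 1724, 541 and 1738 in sh-Gpc2, lowest and highest in the same libraries as Abcg1, and their part in its level was not tested. The log2 fold change of Abcg1 was 0.27 (SE 0.31) in sh-Gpc4 and 0.06 (SE 0.31) in sh-Gpc2, and of Abca1 0.07 (SE 0.14) and 0.05 (SE 0.14).

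**Figure D3:**
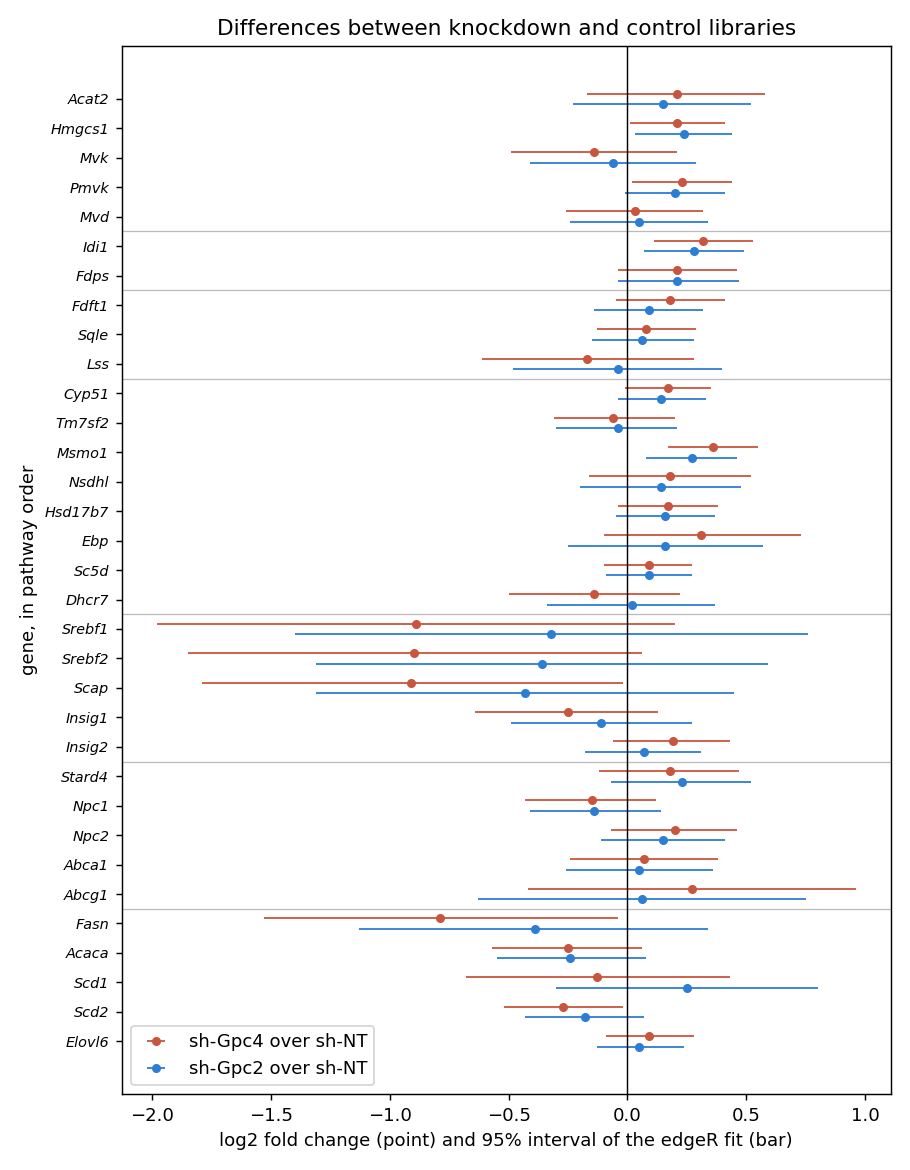
Log2 fold change of each of the 33 genes over sh-NT in sh-Gpc4 (red) and sh-Gpc2 (blue), with the 95% interval of the edgeR fit as a bar and grey lines between roles. Most enzymes lie just right of 0 in both colours, and Srebf1, Srebf2, Scap and Fasn lie furthest left with the widest bars.

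Between the knockdowns, which share no library, the 33 genes had a median log2 difference of 0.00 in sh-Gpc4 over sh-Gpc2, with 15 positive and 18 negative. No gene of the table was called by edgeR (0% at an adjusted p of 0.05, with 303 genes higher and 501 lower at an unadjusted p under 0.05), and DESeq2 and limma also called 0. Of the 33 genes, 0 were at an unadjusted p under 0.05 in either direction, beside 1.09% and 1.8% of all genes. For Msmo1 the difference was 0.09 with a 95% interval of -0.10 to 0.28, for Idi1 0.04 (-0.17 to 0.25) and for Hmgcs1 -0.03 (-0.23 to 0.18). For Srebf1 it was -0.57 (-1.65 to 0.51), for Srebf2 -0.54 (-1.49 to 0.41) and for Fasn -0.39 (-1.13 to 0.35), and each of these intervals takes in both 0 and a 2-fold difference.

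The genes were also set against the GC content and length of their longest transcript, since the libraries differed by these properties. Srebf1, Srebf2, Scap and Fasn have 58.4%, 57.9%, 59.1% and 57.9% GC and are among the genes above the upper quartile of 54.1% GC that are also longer than the median of 3561 bases. The quartiles, the median and the classes given here were taken over 10321 protein-coding genes with a mean log2 CPM above 3. The 899 genes of this kind, Srebf1, Srebf2, Scap and Fasn included, had a median log2 fold change of -0.51 in sh-Gpc4 and -0.27 in sh-Gpc2. Mvd, Pmvk and Mvk are as GC-rich but shorter, a class of 1681 genes with medians of -0.10 and -0.05. Idi1 and Hmgcs1, at 41.9% and 43.1% GC, fall below the lower quartile of GC and are shorter than the median, as are 926 genes with medians of 0.13 and 0.07. Stard4, Hsd17b7, Sc5d and Elovl6 are below that quartile and longer, with 1655 genes at 0.07 and 0.01.

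With the GC trend of each library taken out, an alternative added after the data were seen, sh-Gpc4 was at -0.60 for Srebf2, -0.60 for Srebf1, -0.58 for Scap and -0.47 for Fasn, against 0.30 for Msmo1 and 0.22 for Idi1. In the same fit sh-Gpc2 was at -0.25, -0.22, -0.30 and -0.26 for the first 4 and 0.24 for both Msmo1 and Idi1. Pmvk was then at 0.59 and 0.40 and Mvd at 0.43 and 0.26, higher than without the correction. Of the 18 enzymes, 15 were positive in sh-Gpc4 and 16 in sh-Gpc2 in this fit, with medians of 0.15 and 0.14. Over the 33 genes the Spearman rho of the log2 fold change was -0.39 with GC content and -0.43 with length in sh-Gpc4, and -0.53 and -0.39 in sh-Gpc2. The points share the libraries and their depth, and the part of these properties in the differences was not tested further.

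**Figure D4:**
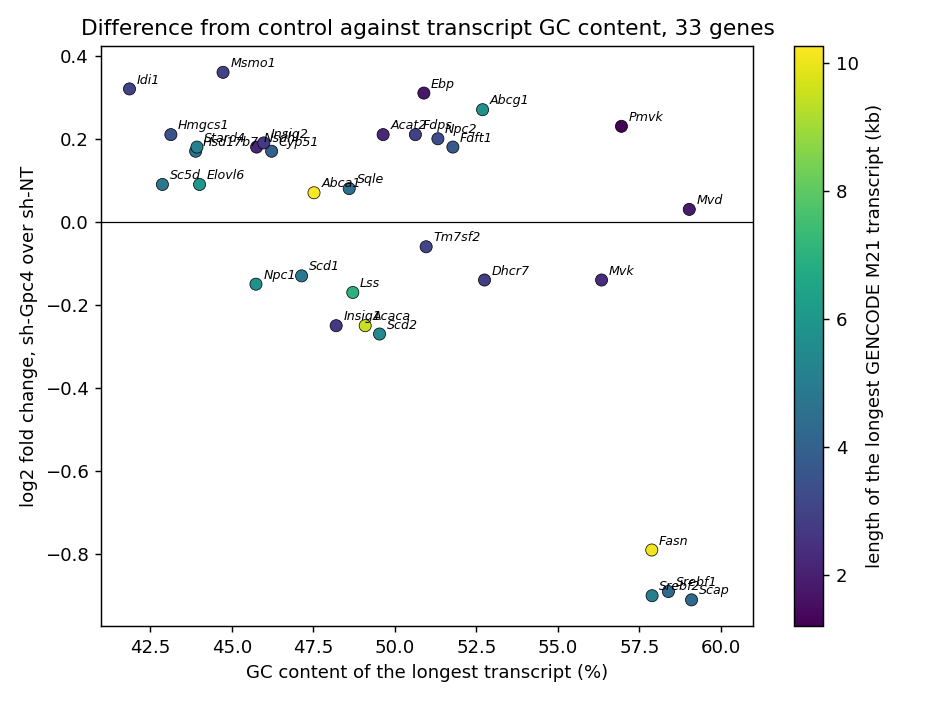
Log2 fold change in sh-Gpc4 over sh-NT (vertical) against the GC percentage of the longest transcript (horizontal) for the 33 genes, coloured by its length in kilobases. Srebf1, Srebf2, Scap and Fasn form the low group at the right, while Pmvk (0.23), Mvd (0.03) and Mvk (-0.14), with shorter transcripts of like GC content, lie above them.

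Genes of the same pathways outside the 33 were counted from 4 lists. None of them passed the adjusted threshold in edgeR. Over all genes, 3.56% were higher and 6.01% lower at an unadjusted p under 0.05 in sh-Gpc4, and 1.62% and 0.947% in sh-Gpc2, and the counts of 0 to 3 genes per list given here are too few to set a list apart from these shares. Of 22 tested genes of further sterol and isoprenoid metabolism, 12 were positive and 10 negative in sh-Gpc4 and 14 and 8 in sh-Gpc2, with 0 at an unadjusted p under 0.05 in either direction. Of 14 genes of SREBP processing and of sterol enzyme breakdown, 5 were positive and 9 negative in sh-Gpc4, with 1 in each direction at an unadjusted p under 0.05, and 4 and 10 in sh-Gpc2 with 0 in either. The lower gene was Rnf145, a ubiquitin ligase of the endoplasmic reticulum, at 89.2, 94.8 and 85.9 CPM in sh-NT, 53.3, 35.9 and 58.2 in sh-Gpc4 and 96.6, 88.2 and 43.7 in sh-Gpc2. All 3 sh-Gpc4 libraries were below the controls, library 1 included, whereas in sh-Gpc2 only library 4 was (log2 -0.87, SE 0.27, and -0.24, SE 0.27). The higher gene was Rnf139, another such ligase, at 16.2 ± 0.425 CPM (SD, n = 3) in sh-NT, 19.2 ± 0.387 in sh-Gpc4 and 17.2 ± 1.22 in sh-Gpc2, for log2 0.24 (SE 0.10) and 0.08 (SE 0.10).

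Of 24 genes of sterol uptake, transport and LXR, 10 were positive and 14 negative in each knockdown. At an unadjusted p under 0.05 were Osbpl2, an oxysterol-binding protein, at log2 -0.36 (SE 0.14) and Gramd1a, a carrier of plasma membrane cholesterol, at -0.53 (SE 0.22) in sh-Gpc4. In sh-Gpc2 it was Nr1h3, which encodes LXR alpha, at 2.37, 3.17 and 3.11 CPM in sh-NT, 2.04, 2.4 and 3.02 in sh-Gpc4 and 3.94, 5.26 and 3.26 in sh-Gpc2. Each sh-Gpc2 library exceeded the controls, at log2 0.53 (SE 0.23), although the level was low. Of 40 genes of fatty acid synthesis, desaturation and lipid assembly, 16 were positive and 24 negative in sh-Gpc4 and 21 and 19 in sh-Gpc2. In sh-Gpc4 Mlycd, malonyl-CoA decarboxylase, was at log2 -0.72 (SE 0.23), Acsl3, an acyl-CoA synthetase, at -0.68 (SE 0.27) and Gpam, the first acyltransferase of glycerolipid synthesis, at -0.56 (SE 0.24), the 3 of the list at an unadjusted p under 0.05. In sh-Gpc2 these 3 were at -0.22, -0.11 and -0.32, and 0 of the list were at that level. In sh-Gpc4 over sh-Gpc2, 5 genes of the 4 lists (22, 14, 24 and 40 tested genes) were lower at an unadjusted p under 0.05 (beside 1.8% of all genes) and 0 higher. Named after their values were seen, they were Nr1h3 at log2 -0.74, Rnf145 at -0.63, Me1 at -0.45, Ch25h at -1.20 and Soat2 at -0.93. Soat2 was near the floor, at 0.105 to 0.468 CPM over all libraries. Ch25h was at 1.68, 1.82 and 1.28 CPM in sh-Gpc4 and 1.59, 7.08 and 2.22 in sh-Gpc2, high only in library 2 of sh-Gpc2. For both, the groups overlapped.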

How the data were processed

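RNA-seq was measured in 9 libraries of sorted embryonic cortex cells. The RNA kit and the library kit are both meant for small inputs, per the labels' protocols. The authors deposited raw read counts per gene, made with featureCounts of Subread on GRCm38 (mm10) per the submitters' processing notes. Not given in the sources used here are the aligner, the annotation release and the use of strand. Overlapping genes may therefore share reads. Column names give the group but do not match the numbers of the titles. GENCODE M21 symbols matched 51486 of 78275 IDs.

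Counts were fitted in R 4.3.3 with the edgeR 4.0.16 quasi-likelihood test on all 9 libraries (1 coefficient per group, TMM, default filter, Benjamini-Hochberg over 27773 genes, threshold 0.05). CPM are TMM-scaled. The procedure was tested on simulated counts with known changes and no shift between libraries. That test does not cover the library shift or the small differences described here. DESeq2 1.42.0, limma 3.58.1, other filters, 2-group fits and omissions served as alternatives. Pairs of libraries in a group differed beyond sampling noise, with a chi-square of 8.67 to 94.4 per degree of freedom, and none was treated as a duplicate.

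The 33 genes, the lists, the motifs and the rules were chosen with earlier results of these data known. Values of every library are given for the genes among the 10 of the 33 with the smallest unadjusted p in a comparison with sh-NT and for a fixed list of pathway genes. Of the other pathway genes, the rule named up to 6 at an unadjusted p under 0.05 in a comparison with sh-NT, and all 8 such genes are given. A planned permutation test of single genes was not used, because the genes were chosen on these values.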

Additional observations from a re-analysis of the deposited data

How the results depend on the processing

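In 18 alternatives per comparison, none of the 33 genes passed an adjusted p of 0.05. The smallest was 0.0531, in the limma voom fit with sample weights. The number of genes called by edgeR in sh-Gpc4 over sh-NT was 0, with 988 higher and 1669 lower at an unadjusted p under 0.05, while DESeq2's Wald test called 46. The cause was not tested. The median log2 fold change of the 33 genes without 1 library at a time ran from 0.07 to 0.14 in sh-Gpc4 over sh-NT, from 0.03 to 0.11 in sh-Gpc2 over sh-NT and from -0.06 to 0.01 in sh-Gpc4 over sh-Gpc2, and calls stayed at 0. The direction held in all 18 alternatives for 28 of 33 genes in sh-Gpc4, 23 in sh-Gpc2 and 9 between the knockdowns. In sh-Gpc4 it turned at least once for Abca1, Mvd, Mvk, Scd1 and Tm7sf2. Without library 4 of sh-Gpc2, Srebf1 turned to 0.06 and Srebf2 stood at -0.01 in sh-Gpc2. The GC trend and the joint omission of 2 libraries were chosen after seeing the data.

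Same-numbered libraries did not deviate together in every pair (correlations of -0.10 to 0.68, against -0.87 to 0.83 in other pairs). Whether the numbers pair the libraries is not known from these values, and library 3 of sh-Gpc4 has no same-numbered partner. With the column number as a replicate block, calls were 0 in all 3 comparisons and the medians 0.08, 0.06 and 0.01. The SREBP control median moved from -0.89 to -0.42 in sh-Gpc4 over sh-NT and from -0.32 to -0.49 in sh-Gpc2 over sh-NT. It moved from -0.48 to 0.04 in sh-Gpc4 over sh-Gpc2, where Srebf1 (0.07) and Scap (0.04) turned positive. Library 3 of sh-Gpc4 is alone in its block, so that fit takes nothing from it for a comparison of groups. With only that library left out and no block, the SREBP control median was -0.55 in sh-Gpc4 over sh-NT and -0.18 in sh-Gpc4 over sh-Gpc2. The block and the loss of this library are therefore not separated here. Standard errors of Srebf1, Srebf2, Scap and Fasn were 0.33 to 0.49, and their fewest reads in 1 library were 1372, 3722, 920 and 3073. The fewest of any of the 33 genes were 454, for Scd1. The part of depth in these errors was not tested.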
